A study of Mus musculus with 10 samples.

Results

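Hedgehog signalling was described by 8 genes, Ihh, Hhip, Ptch1, Smo, Sufu, Gli1, Gli2 and Gli3, chosen by name and found in the deposited tables by their Ensembl identifiers, out of 40620 genes. They were followed in MC3T3-E1, one clonal mouse line of preosteoblasts from the skull vault, with no transgene or targeted gene in any group. The cells were taken as subconfluent and as confluent cultures in growth medium, and after 24 h, 14 d and 21 d in medium with ascorbic acid and β-glycerophosphate, which drive matrix formation and mineral deposition. Each stage had 2 RNA-seq libraries, A and B, and nothing in the labels says that these came from separate cultures, so p-values measure the spread between these libraries, which may be technical.

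Hedgehog ligands are secreted proteins that bind the receptor Ptch1. Without ligand Ptch1 holds back Smo, a membrane protein that signals from the primary cilium, and Sufu keeps the Gli transcription factors in the cytoplasm, where Gli3 is largely cut to a repressor. With ligand, Smo is released and Gli factors switch on target genes, among them Gli1, Ptch1 and Hhip themselves. In the growing skeleton Ihh comes from prehypertrophic chondrocytes and acts on neighbouring osteoblast precursors.

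In these libraries the path was present from its receptor to its repressor, while its ligand and its activator Gli2 were at the edge of detection. Smo was by far the most abundant member, and Gli3 was the most abundant Gli factor in every library. Gli3 fell by 1.23 ± 0.20 on the log2 scale (standard error, SE) between subconfluent and 21 d cells (adjusted p = 0.00185, edgeR). Sufu fell by 0.37 ± 0.12 (adjusted p = 0.0316, edgeR), and the few counts of Ihh and Gli2 rose over the same interval. Unlike that of Gli3, the calls of Sufu, Ihh and Gli2 did not hold in all alternative analyses. The early and late stages also differed in index sequences, which cannot be told apart from stage. Ptch1 was at a higher level in all 4 libraries of 14 d and 21 d than in the other 6 libraries, but with 24 h cells in the fit it did not pass the test.

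Promoter letters are shown for 3 members that stand for a high level (Smo), a changed ratio to the other members (Ptch1) and a level near 0 (Gli2). Each run is the 250 bases before the RefSeq transcription start on GRCm38.p6, 5′ to 3′ on the strand of the gene, with each GC box (GGGCGG, or CCGCCC on the other strand) in capitals. Smo lies at chr6:29735247-29735496 on the plus strand, Ptch1 at chr13:63565736-63565985 and Gli2 at chr1:119053620-119053869, both on the minus strand.
Smo: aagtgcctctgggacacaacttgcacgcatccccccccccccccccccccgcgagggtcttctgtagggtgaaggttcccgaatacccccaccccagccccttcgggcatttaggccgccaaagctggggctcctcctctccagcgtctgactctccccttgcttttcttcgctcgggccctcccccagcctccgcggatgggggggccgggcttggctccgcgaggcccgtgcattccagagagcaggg
Ptch1: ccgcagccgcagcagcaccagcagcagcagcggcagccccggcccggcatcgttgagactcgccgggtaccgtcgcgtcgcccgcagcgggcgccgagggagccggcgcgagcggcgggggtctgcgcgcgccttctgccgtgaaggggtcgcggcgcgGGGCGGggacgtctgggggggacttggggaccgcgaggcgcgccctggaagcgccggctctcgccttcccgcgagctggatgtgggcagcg
Gli2: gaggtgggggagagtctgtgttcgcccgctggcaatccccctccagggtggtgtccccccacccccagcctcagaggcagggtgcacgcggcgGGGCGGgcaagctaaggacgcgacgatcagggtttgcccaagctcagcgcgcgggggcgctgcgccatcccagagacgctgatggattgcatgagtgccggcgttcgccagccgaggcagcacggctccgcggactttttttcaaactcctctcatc
A promoter was found for 7 of the 8 members, all but Gli1. A GC box was present in 6 of these 7 windows, against 32.7% of all 32851 promoters, and Smo, the most abundant member, was the window without one. The GC content of the windows ran from 54.0% for Sufu to 78.4% for Ptch1, against a median of 52.4% over all promoters. The letters GACCACCCA, the consensus bound by Gli factors, or TGGGTGGTC on the other strand, were in 0 of the 7 windows and in 0.225% of all promoters. A match, or none, in these letters is a description of the window and says nothing of binding. RefSeq and GENCODE place the starts of Gli3 and Ptch1 differently, so both windows lie inside the annotated gene. That of Gli3 is covered by annotated exons, counted over all genes and both strands, and that of Ptch1 lies outside exons.

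Library totals ran from 44736156 to 162939333 counts. The replicates of 24 h cells stood apart. Of the 15106 genes that averaged 1 CPM or more (CPM, counts scaled to library size), 8.20% differed more than 2-fold between the A and B libraries at 24 h, against 1.43% to 1.80% at the other stages, and library 24 h A also had the highest number of counts per read behind its RPKM, 1.60 against 1.44 to 1.52. Results that rest on 24 h cells are therefore given with and without them. One set of index sequences was used before 14 d and another from 14 d on, so the index sets and the early and late stages cannot be told apart. Only confluent against subconfluent, 24 h against confluent and 21 d against 14 d lie within one set. Osteoblast markers bore out the label, since 8 of 9 rose between subconfluent and 21 d cells, where 27.3% of all genes were higher. The summed level of all 9 went from 5832 to 6056 RPKM to 9485 to 10584 RPKM. At 14 d it was 14855 to 16144 RPKM. Col1a1 held most of the subconfluent sum, at 5655 and 5442 RPKM, and was at 5287 and 4900 RPKM at 21 d. From 14 d to 21 d 2 of 9 rose and 4 fell, against 3.77% of all genes higher and 5.95% lower. In bulk RNA, fewer cells of a type and less RNA per cell cannot be told apart.

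**Figure D1:**
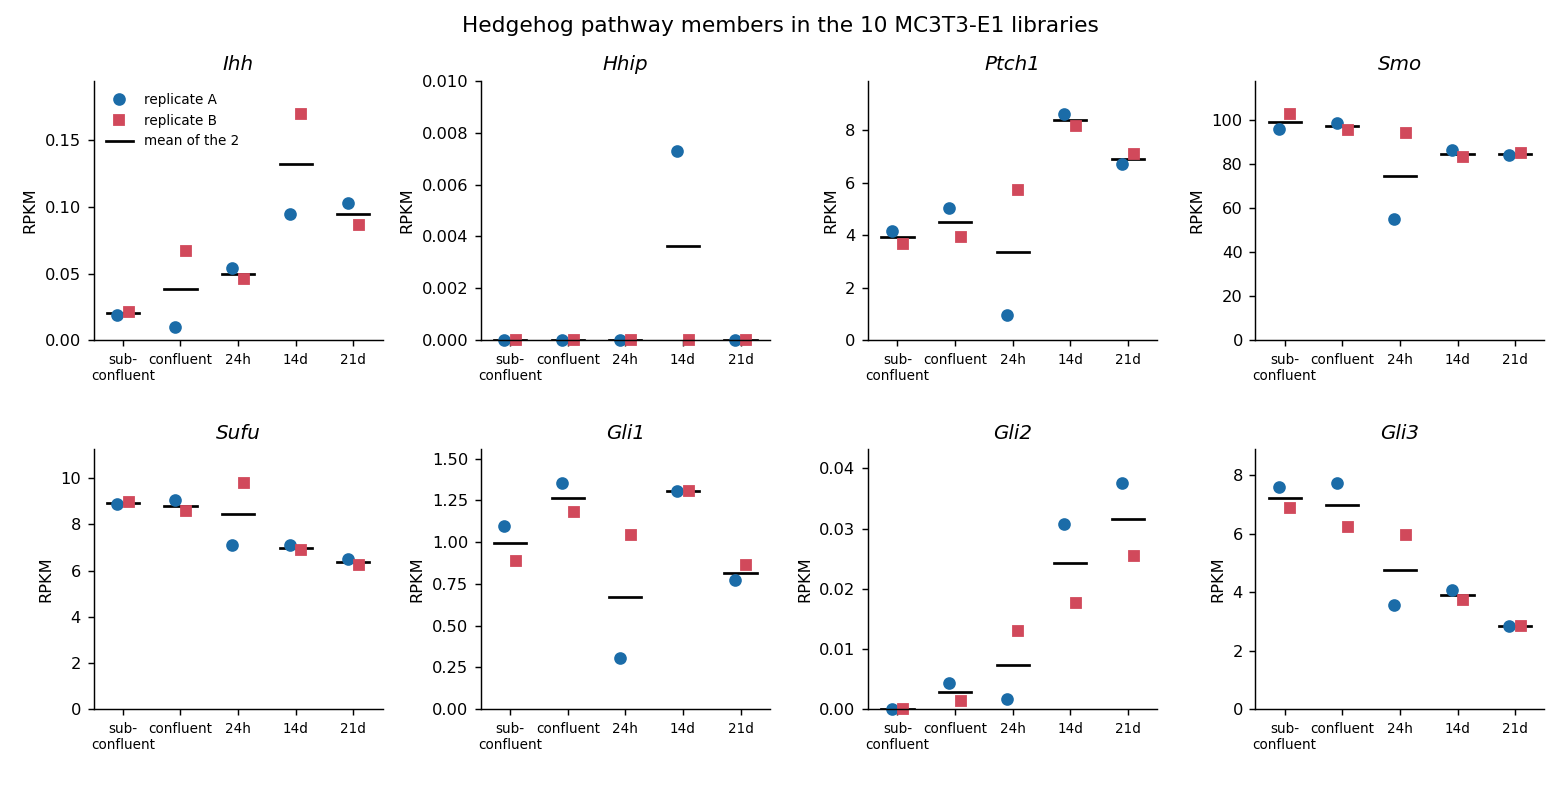
RPKM of the 8 members (vertical axes from 0, different for each gene) in the A and B libraries of the 5 stages, with the mean of the 2 as a bar. Gli3 and Sufu are lowest at 21 d, Ptch1 is highest at 14 d, and at 24 h the A library lies well below the B library for Ptch1, Gli1, Smo and Gli3.

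Ihh, the ligand, was measured at a trace. It lies on chromosome 1 at 74945315 to 74951672 of GRCm38, on the minus strand. Its RPKM (reads per kilobase of gene, scaled to library size) were 0.0191 and 0.0212 in subconfluent cells, 0.00966 and 0.0669 in confluent cells, 0.0541 and 0.0457 at 24 h, 0.0949 and 0.169 at 14 d, and 0.103 and 0.0862 at 21 d (A and B). All 4 libraries of 14 d and 21 d were above the other 6 libraries, whereas the 2 confluent libraries lay on either side of the subconfluent ones. The counts behind them were 8 in subconfluent cells, 23 in confluent cells, 25 at 24 h, 43 at 14 d and 32 at 21 d, summed over both libraries. Ihh rose between subconfluent and 21 d cells by 2.32 on the log2 scale (adjusted p = 0.0381, edgeR), and the pooled counts gave a 4.53-fold ratio with a 95% exact counting interval of 2.04 to 11.4, which covers counting error only. The call was lost when any 1 of the 6 subconfluent, 14 d or 21 d libraries was left out (adjusted p from 0.0543 to 0.191, edgeR), with DESeq2 (adjusted p = 0.0521) and with limma on log2(RPKM + 1) (adjusted p = 0.0735). At 14 d against confluent cells the difference was 1.78 on the log2 scale (adjusted p = 0.0913, edgeR), or 3.87 without confluent library B (adjusted p = 0.0227).

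Because Ihh is known from cartilage, chondrocyte markers were set beside it. Of 10 markers 8 were tested, and between subconfluent and 21 d cells 6 rose and 2, Col2a1 and Matn3, fell. In that comparison 27.3% of all genes were higher and 23.5% lower. The summed level of the 10 markers ran from 182 to 185 RPKM in subconfluent cells, 102 to 109 RPKM in confluent cells, 59.4 to 78.4 RPKM at 24 h, 449 to 477 RPKM at 14 d and 185 to 197 RPKM at 21 d. Col10a1, the collagen of hypertrophic chondrocytes, was at most 0.212 RPKM up to 14 d and 1.67 and 5.88 RPKM at 21 d. Acan and Matn1, also of cartilage matrix, stayed at or below 0.0206 and 0.0287 RPKM in all libraries. Levels differed widely between markers, since Col2a1 lay between 33.1 RPKM (24 h A) and 210 RPKM (14 d B). Sox9 lay between 12.6 RPKM (24 h A) and 36.1 RPKM (21 d A). Col11a2 went from 0.329 and 0.386 RPKM (subconfluent A and B) to 201 and 219 RPKM (14 d A and B). By 21 d it stood at 64.2 and 64.8 RPKM. The part of chondrocytes in the level of Ihh was not tested. Of the other cell types looked for, 5 endothelial markers summed to at most 0.107 RPKM in any library, 6 adipocyte markers to at most 2.24 RPKM, 6 hematopoietic markers to 18.2 to 29.1 RPKM, 5 muscle markers to 14.7 to 43.8 RPKM and 5 epithelial markers to 0.652 to 9.22 RPKM. At 21 d against subconfluent cells 2 of 2 tested adipocyte, 1 of 2 endothelial, 1 of 4 hematopoietic and 2 of 2 epithelial markers rose, and 1 of 2 muscle markers, Acta1, fell. The shares of all genes are those given for the chondrocyte markers. Ptprc, Myod1 and Epcam, markers of blood cells, muscle and epithelium, were listed at 0 in all 10 libraries. Cdh5 and Kdr of endothelium did not exceed 0.00559 and 0.00448 RPKM. Other markers of the same lists were measured, with Lyz2 at 9.81 to 16.1, Itgam at 5.00 to 9.86 and Csf1r at 1.83 to 3.19 RPKM. Acta1 of the muscle list was at 14.3 to 43.6 RPKM and Krt14 of the epithelial list at 0.572 to 8.96 RPKM. The part of such cells in the levels of the members was not tested.

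Hhip, a membrane protein that binds Hedgehog ligands and takes them away from Ptch1, was barely detected. It lies on chromosome 8 at 79965851 to 80058006, on the minus strand. It had 2 counts in library 14 d A (0.00729 RPKM) and 0 in the other 9 libraries, of 1015103989 counts in all. A stage with 0 counts allows a level of up to 0.0119 to 0.0175 CPM (3 counts over its 2 libraries, counting error only), so a lower level of Hhip was not detectable at this depth. The gene did not pass the filter on low counts and was not tested.

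Ptch1, the receptor that restrains Smo and a known target of the path, lies on chromosome 13 at 63508328 to 63573598, on the minus strand. It was at 4.16 and 3.67 RPKM in subconfluent cells, 5.04 and 3.94 RPKM in confluent cells, 0.981 and 5.72 RPKM at 24 h, 8.59 and 8.14 RPKM at 14 d, and 6.72 and 7.08 RPKM at 21 d. The 4 late libraries were above all others, and the libraries at 24 h were the lowest and the highest of the early ones. Its difference between the libraries A and B at 24 h, 2.43 on the log2 scale, was larger than that of 98.6% of 15106 genes, on 357 and 1934 counts.

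With all 10 libraries in one fit, Ptch1 differed by 1.12 ± 0.62 (log2, SE) between 14 d and confluent cells (adjusted p = 0.218, edgeR) and by 0.93 ± 0.62 between 21 d and subconfluent cells (adjusted p = 0.252, edgeR), neither past the threshold of 0.05. In the fit without the 24 h libraries the same differences were 1.10 ± 0.12 (adjusted p = 0.00046, edgeR) and 0.92 ± 0.12 (adjusted p = 0.000508, edgeR). With only the 2 stages of each comparison fitted they were 1.11 (adjusted p = 0.00331) and 0.93 (adjusted p = 0.000587). Leaving out either 24 h library alone gave adjusted p-values of 0.000504 and 0.000544 for the first comparison and 0.000571 and 0.000636 for the second. The size of the difference was thus the same with and without 24 h cells, and its call rested on the spread that these libraries add. Ptch1 against 24 h cells cannot be given 1 value, since 14 d was higher by 0.72 on the log2 scale than library B (adjusted p = 0.0192, edgeR) and by 3.12 than library A (adjusted p = 9.14e-05, edgeR). Within the index set of the late libraries Ptch1 was 0.35 ± 0.61 lower at 21 d than at 14 d on the log2 scale (adjusted p = 0.828, edgeR), or 0.31 lower when those stages were fitted alone (adjusted p = 0.0176).

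Smo, which passes the signal on once Ptch1 lets it go, lies on chromosome 6 at 29735503 to 29761365, on the plus strand. Its levels were 95.7 and 102 RPKM in subconfluent cells, 98.8 and 95.3 RPKM in confluent cells, 55.0 and 94.1 RPKM at 24 h, 86.2 and 83.1 RPKM at 14 d, and 84.2 and 85.0 RPKM at 21 d. Library 24 h A was low, and in RPKM the 4 late libraries lay slightly below the other 5. In the CPM behind the tests the 14 d libraries of Smo (234 and 232) lay among those 5 (226 to 247), and the 21 d libraries (219.5 and 222.6) below them. Its mean of 88.0 ± 13.4 RPKM (standard deviation, SD, over the 10 libraries) ranked 1738 of 20795 tested genes with RPKM values. With all libraries fitted, Smo did not pass the test in any of the 6 comparisons. At 21 d against subconfluent cells the difference was -0.11 ± 0.19 (log2, SE, adjusted p = 0.666, edgeR), or -0.12 ± 0.06 without 24 h cells (adjusted p = 0.098). For 24 h against confluent cells the log2 difference of Smo ran from -0.659 to -0.00598 with 1 library left out, so it cannot be given 1 value.

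Sufu, the inhibitor that binds Gli proteins, lies on chromosome 19 at 46396896 to 46488804, on the plus strand. It was at 8.89 and 8.96 RPKM in subconfluent cells, 9.06 and 8.56 RPKM in confluent cells, 7.11 and 9.77 RPKM at 24 h, 7.10 and 6.89 RPKM at 14 d, and 6.52 and 6.23 RPKM at 21 d. In RPKM the late libraries lay below all others, with library 24 h A only just above 14 d A, and 21 d lay below 14 d. In the CPM behind the tests 24 h A of Sufu (34.2) lay below both 14 d libraries (35.5 and 35.4) and above those of 21 d (31.3 and 30.01). The fall of 0.37 between subconfluent and 21 d cells was small and past the threshold, but it was lost when any 1 of the 6 subconfluent, 14 d or 21 d libraries was left out (adjusted p from 0.0566 to 0.142, edgeR) or when at least 10 counts were asked of every sample (adjusted p = 0.0519). Without 24 h cells it was 0.38 ± 0.05 (log2 decrease, adjusted p = 0.000486, edgeR), and Sufu then also fell from 14 d to 21 d by 0.20 ± 0.05 (adjusted p = 0.0239, edgeR).

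Gli3, which serves mainly as the repressor of the path, lies on chromosome 13 at 15463235 to 15730026, on the plus strand. It was at 7.60 and 6.89 RPKM in subconfluent cells, 7.73 and 6.23 RPKM in confluent cells, 3.58 and 5.95 RPKM at 24 h, 4.08 and 3.72 RPKM at 14 d, and 2.86 and 2.85 RPKM at 21 d. Both 21 d libraries were below all others, and both 14 d libraries were below the subconfluent and confluent ones. The counts ran from 957 to 7489. The fall from subconfluent to 21 d cells was past the threshold in all 21 alternative analyses, with log2 fold changes from -1.38 to -1.09 and adjusted p-values up to 0.0171. It was -1.24 ± 0.10 without 24 h cells (adjusted p = 6.83e-05, edgeR). From confluent to 14 d cells Gli3 fell by 0.62 ± 0.20 on the log2 scale (adjusted p = 0.0496, edgeR), a call at the edge of the threshold that was lost when any 1 library of a stage other than 24 h was left out (adjusted p from 0.0531 to 0.236), and was -0.64 ± 0.10 without 24 h cells (adjusted p = 0.00241, edgeR). Within the late index set, 21 d was lower than 14 d by 0.52 ± 0.20 (log2, adjusted p = 0.164, edgeR), or by 0.52 ± 0.10 without 24 h cells (adjusted p = 0.0127, edgeR). Against confluent cells, Gli3 at 24 h differed by -0.80 on the log2 scale with library 24 h A alone and by -0.19 with library B alone.

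Gli1, an activator whose own transcription follows the activity of the path, lies on chromosome 10 at 127329882 to 127341974, on the minus strand. Its levels were 1.10 and 0.889 RPKM in subconfluent cells, 1.35 and 1.18 RPKM in confluent cells, 0.304 and 1.04 RPKM at 24 h, 1.31 and 1.31 RPKM at 14 d, and 0.771 and 0.862 RPKM at 21 d. In RPKM the 14 d libraries lay within the range of the confluent ones, and the 21 d libraries were below those of 14 d, confluent and subconfluent cells. This order depends on the scaling, since in the CPM behind the tests the 14 d libraries of Gli1 (1.64 and 1.68) were above the confluent ones (1.48 and 1.29) and 21 d B (1.04) was above subconfluent B (0.992). In the fit of all libraries Gli1 did not pass the test in any comparison, with -0.17 ± 0.47 at 21 d against subconfluent cells (log2, SE, adjusted p = 0.793, edgeR) and -0.75 ± 0.47 at 21 d against 14 d (adjusted p = 0.409, edgeR). Without 24 h cells it fell from 14 d to 21 d by 0.74 ± 0.17 (adjusted p = 0.0198, edgeR). Against confluent cells, Gli1 at 24 h differed by -1.89 on the log2 scale with library 24 h A alone and by -0.24 with library B alone. Gli1 shares 62 exon bases with Arhgap9 on the opposite strand, which had a mean of 224.5 counts against 118.2 for Gli1, and 265 exon bases with the antisense gene Gm47200. Whether counting used strand is not given in the sources used here, so part of the Gli1 counts is uncertain.

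Gli2, the main activator of the path in many tissues, lies on chromosome 1 at 118834132 to 119053619, on the minus strand. It had 0 and 0 counts in subconfluent cells, 1 and 1 in confluent cells, 1 and 7 at 24 h, 19 and 4 at 14 d, and 9 and 14 at 21 d. Its highest level was 0.0375 RPKM, in library 21 d A, and all 4 late libraries were above the other 6 libraries in RPKM. Against the limit of 3 counts over both subconfluent libraries, Gli2 was at least 8.68-fold higher at 21 d, counting error only. The edgeR test of this comparison, on the fitted change and not on that bound, gave adjusted p = 0.00861. It was lost without subconfluent library A and with limma on log2(RPKM + 1) (adjusted p = 0.114). Gli2 passed the filter on low counts only through late libraries, at 0.0820 to 0.173 CPM against at most 0.0604 CPM in the earlier ones. Its calls are therefore no separate support for a rise. At 14 d the pooled counts were 23 against 2 in confluent cells, a 13.2-fold ratio with a 95% exact counting interval of 3.26 to 115 (adjusted p = 0.0456, edgeR). That call was lost when any 1 library of stages other than 24 h was left out (adjusted p from 0.0563 to 0.269), with DESeq2 (adjusted p = 0.0963), with library size as the only scaling (adjusted p = 0.0616), with no filter (adjusted p = 0.0545) and with limma on log2(RPKM + 1) or log2(RPKM + 0.1) (adjusted p = 0.301 and 0.107). Gli2 stayed at most 1.02% of the summed RPKM of the 3 Gli genes, whereas Gli3 held 73.8% to 92.1% of it. These shares rest on the gene lengths behind the deposited RPKM. With annotated exon lengths the mean over the 10 libraries was 0.352 in place of 1.01 RPKM for Gli1, and 5.14 in place of 5.15 RPKM for Gli3.

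Counted over the members, 2 of 7 tested (Gli2 and Gli3) differed over the 5 stages, where 48.9% of 20808 tested genes did. Gli2 was among the 7 only through its late libraries. Between subconfluent and 21 d cells 2 rose and 2 fell, against 27.3% of all genes higher and 23.5% lower. From confluent to 14 d cells 1 rose and 1 fell, against 16.9% higher and 15.3% lower. No member passed the test in the other comparisons. The background there was 1.95% higher and 1.34% lower for confluent against subconfluent, 3.59% higher and 1.57% lower for 24 h against confluent, 9.08% higher and 8.21% lower for 14 d against 24 h, and 3.77% higher and 5.95% lower for 21 d against 14 d. At an unadjusted p under 0.05 these 4 comparisons held 0, 1, 2 and 1 members with edgeR, and DESeq2 called 1 member, Ptch1, in 14 d against 24 h (adjusted p = 0.0445) and 0 in the other 3. No share of all genes at these settings is given here, so these counts cannot be read against a background. The median log2 fold change of the tested members at 21 d against subconfluent was -0.11, beside 0.04 over all genes.

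Without the 24 h libraries more members and more of all genes were called. Over the remaining 4 stages 5 of 7 members differed (Ptch1, Sufu, Gli1, Gli2 and Gli3), against 70.6% of 19994 genes. At 21 d against subconfluent cells 3 rose and 2 fell, against 34% higher and 32.1% lower. At 14 d against confluent cells 2 rose and 1 fell, against 26.6% higher and 26.1% lower. At 21 d against 14 d 0 rose and 3 fell (Sufu, Gli1 and Gli3), against 11% higher and 15.6% lower. The counts of members rose together with the counts over all genes, and none of them is read as particular to Hedgehog genes.

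**Figure D2:**
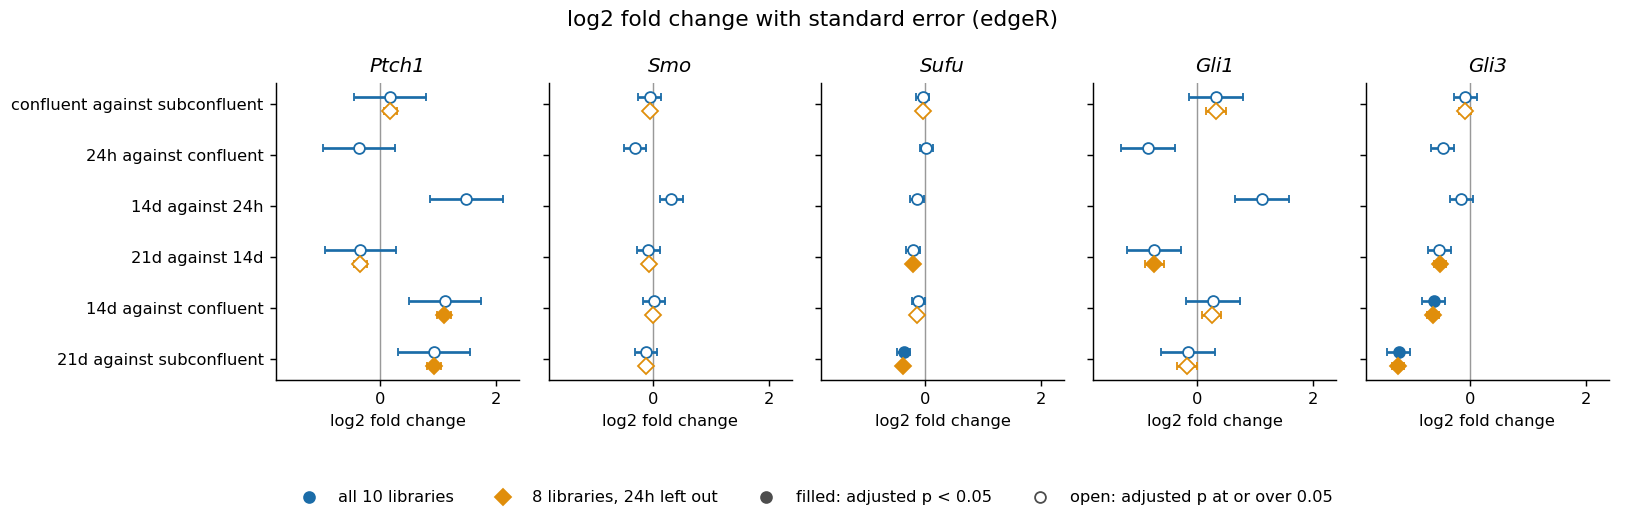
log2 fold change (horizontal axis, bars are ± 1 SE of the edgeR fit) of the 5 well-covered members in the 6 comparisons, with all 10 libraries (circles) and without the 24 h libraries (diamonds), filled where the adjusted p was under 0.05. The estimates barely move between the fits, while the SE of Ptch1 falls from 0.62 to 0.12 and its late differences pass the threshold.

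The balance of members within a library does not depend on how libraries are scaled to each other. The RPKM ratio of Gli3 to Ptch1, repressor to receptor, was 1.82 and 1.88 in subconfluent cells, 1.53 and 1.58 in confluent cells, 3.65 and 1.04 at 24 h, 0.475 and 0.457 at 14 d, and 0.425 and 0.403 at 21 d. Replicates were close at every stage but 24 h, and all 4 late ratios lay below all others. The mean log2 ratio went from 0.89 ± 0.03 (SD, n = 2) in subconfluent cells to -1.27 ± 0.05 at 21 d. The level of this ratio, and so its sign, rests on the gene lengths behind the deposited RPKM, whereas its change between stages does not. With annotated exon lengths the means over the 10 libraries were 1.63 RPKM for Ptch1 and 5.14 RPKM for Gli3.

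The ratio of Gli1 to Ptch1 was 0.242 to 0.299 over the subconfluent and confluent libraries, 0.310 and 0.182 at 24 h, and 0.115 to 0.160 over the late ones, so Gli1 was lower beside Ptch1 in the late libraries. Ptch1 beside Smo went the other way, with 0.0358 to 0.0510 in the subconfluent and confluent libraries, 0.0178 and 0.0608 at 24 h, and 0.0798 to 0.0997 in the late ones. These ratios are given without a test, the early and late ranges did not overlap once 24 h was set aside, and they follow the split between the index sets.

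**Figure D3:**
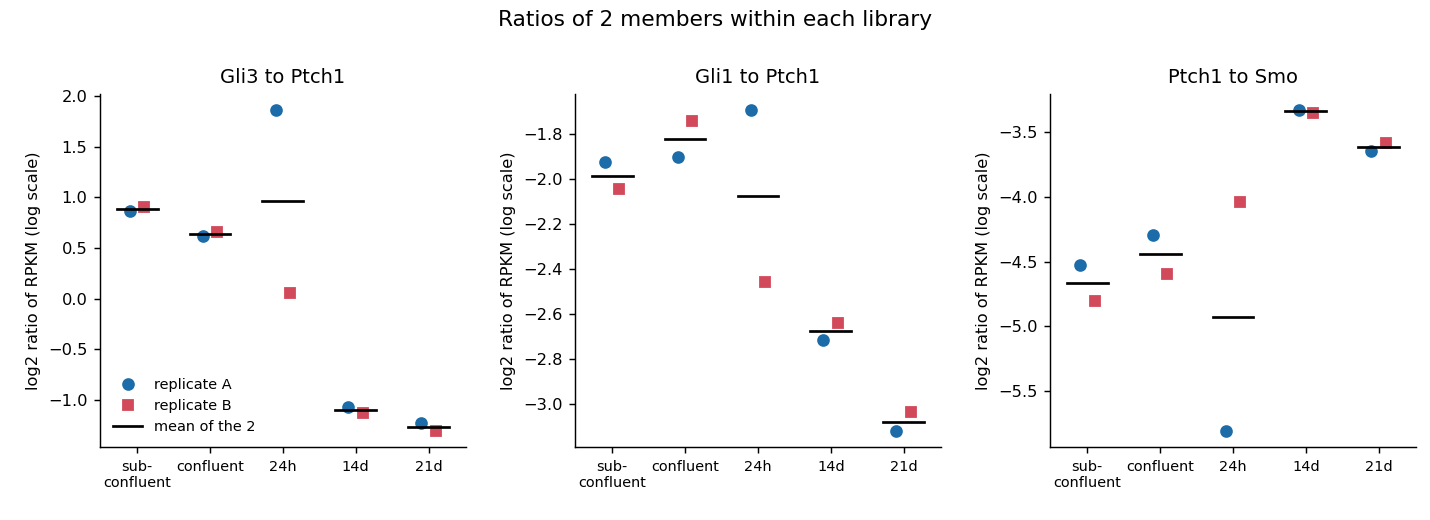
log2 of the RPKM ratio of 2 members within each library (vertical axes, log scale), by stage, with the mean of the A and B libraries as a bar. The late libraries lie below the subconfluent and confluent ones for Gli3 to Ptch1 and Gli1 to Ptch1 and above them for Ptch1 to Smo, and the 24 h libraries are far apart.

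Per length, the members in subconfluent and confluent cells stood in the order Smo, Sufu, Gli3, Ptch1, Gli1, Ihh, Gli2, Hhip. At 14 d and 21 d Ptch1 stood second, above Sufu and Gli3, at 8.37 ± 0.32 RPKM against 6.995 ± 0.148 and 3.90 ± 0.25 RPKM at 14 d (mean ± SD, n = 2). Neighbours in the order did not overlap between their libraries, except Gli3 with Ptch1 and Ptch1 with Gli1 at 24 h, and Gli2 with Hhip, both at 0, in subconfluent cells. The order rests on the gene length used in the deposited table, which for Ptch1 is 4282 bases against 14185 bases of annotated exons and for Gli1 1741 against 4995. With the annotated length the mean of Ptch1 over the 10 libraries was 1.63 in place of 5.40 RPKM, below Gli3 at 5.14 RPKM, and the mean of Smo was 59.0 RPKM and still the highest. Changes of 1 gene between stages do not depend on its length.

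Over the 10 libraries, Gli1 followed Ptch1 (Pearson r of log2 CPM 0.83) and Smo (0.88), and Gli3 followed Sufu (0.89) and ran against Ihh (-0.79). The 10 points share stages and index sets, and for Gli1, Ptch1 and Smo the low values of library 24 h A, so these are descriptions. Among 15105 other genes with at least 1 CPM on average, those nearest in pattern were Kat2b, Gm12359 and Ctdsp2 for Ptch1 (r = 0.99 for each), Tpp2, Kpna6 and Amd-ps3 for Gli3 (0.996 to 0.991), Mgat5, Mir6995 and Gm9146 for Gli1 (0.98), and Gnpat, Adamts9 and Polr1a for Sufu (0.98). For Smo they were Gm10356, Mir1966 and Gm12928 (0.99), for Gli2 Jmy, Ints6l and Gm12538 (0.99), and for Ihh Ogfod3, Lysmd4 and Fam174a (0.95). Gli2 and Ihh had at most 19 and 26 counts in any library, so their patterns lie near the floor.

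Of 56 other genes of the path in 5 lists, 49 were tested. Between subconfluent and 21 d cells 15 rose and 10 fell, and the median change of the 49 was 0.01 on the log2 scale, beside 0.04 over all genes. Of all genes 27.3% were higher and 23.5% lower in that comparison, so these counts are near the background. From confluent to 14 d cells 10 rose and 6 fell, against 16.9% higher and 15.3% lower of all genes. From 24 h to 14 d 8 rose and 2 fell, from 14 d to 21 d 3 rose (Ulk3, Ift172 and Foxc2), from confluent to 24 h 2 rose (Hhat and Spop), and from subconfluent to confluent cells 3 fell (Kctd11, Rab23 and Foxc2), with the shares of all genes given above. The calls in neighbouring stages are unstable. Over the alternative analyses their number ran from 0 to 10 for confluent against subconfluent, 0 to 23 for 24 h against confluent, 0 to 26 for 14 d against 24 h and 0 to 18 for 21 d against 14 d. Without 24 h cells, 18 rose and 13 fell at 21 d against subconfluent and 16 rose and 15 fell at 14 d against confluent, of 48 tested, where 34% and 26.6% of all genes were higher and 32.1% and 26.1% lower.

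Among ligands and the proteins that lipidate or release them, 4 of 5 tested genes rose at 21 d against subconfluent cells and 0 fell, or 4 rose and 1, Disp1, fell without 24 h cells. The shares of all genes were 27.3% higher and 23.5% lower, or 34% and 32.1% without 24 h cells. The ligands Shh and Dhh were at or near 0, with 1 count of Shh in all 10 libraries and at most 0.0159 RPKM of Dhh. Scube1, a secreted protein related to a helper of ligand release, had 1 count in subconfluent cells and 103 at 21 d. The ratio was 117-fold with a 95% exact counting interval of 20.5 to 4648, and the edgeR test gave adjusted p = 0.000133. Scube1 passed the filter on low counts only through late libraries, at 0.247 to 0.687 CPM against at most 0.0654 CPM in the earlier ones. Its call, 1 of the 4 rises, is therefore no separate support. Scube2, which helps to release ligand, rose by 2.27 ± 0.52 on the log2 scale (adjusted p = 0.00895, edgeR), from 0.0964 and 0.0625 RPKM to 0.367 and 0.360 RPKM. Hhat, the enzyme that attaches palmitate to the ligand, rose by 1.11 ± 0.13 (adjusted p = 0.000312, edgeR), from 1.60 and 1.71 RPKM to 3.34 and 3.28 RPKM, with both 21 d libraries above both subconfluent ones. Disp1, the ligand exporter, went from 18.3 and 18.5 RPKM to 13.5 and 11.7 RPKM, a difference of -0.44 ± 0.17 (log2, SE) that did not pass with all libraries (adjusted p = 0.0672, edgeR) and was -0.44 ± 0.08 and past the threshold without 24 h cells (adjusted p = 0.00317, edgeR).

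Among the other receptors and co-receptors 1 of 4 tested rose and 2 fell at 21 d against subconfluent cells. Of all genes 27.3% were higher and 23.5% lower. Of the co-receptors that bind ligand together with Ptch1, Cdon fell by 1.36 ± 0.21 on the log2 scale (adjusted p = 0.00151, edgeR), from 16.5 and 16.1 RPKM to 6.22 and 5.53 RPKM. Gas1 fell by 0.42 ± 0.13 (adjusted p = 0.0306, edgeR) from a high level of 123 and 140 RPKM to 91.8 and 89.7 RPKM. Boc, the relative of Cdon, rose by 0.55 ± 0.19 (adjusted p = 0.0461, edgeR), from 7.002 and 7.343 RPKM to 9.64 and 9.70 RPKM.

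Of 18 intracellular regulators 5 rose and 6 fell at 21 d against subconfluent cells, where 27.3% of all genes were higher and 23.5% lower. Gpr161, a ciliary receptor that restrains the path through cAMP, fell by 1.30 ± 0.44 (log2, adjusted p = 0.0426, edgeR), from 3.84 and 3.52 RPKM to 1.37 and 1.39 RPKM. Prkaca, the catalytic subunit of protein kinase A, which marks Gli proteins for processing, fell by 0.94 ± 0.09 (adjusted p = 0.000118, edgeR), from 72.2 and 74.9 RPKM to 35.9 and 34.7 RPKM. Ulk3, a kinase of Gli proteins, rose by 1.03 ± 0.13 (adjusted p = 0.000477, edgeR), from 3.26 and 3.13 RPKM to 6.02 and 6.01 RPKM. For these 3 genes the libraries of both stages did not overlap.

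Of 12 genes of cilium transport 4 rose and 1 fell, or 6 and 1 without 24 h cells. The shares of all genes were 27.3% higher and 23.5% lower, or 34% and 32.1% without 24 h cells. Bbs1, part of the BBSome that moves receptors in and out of the cilium, rose by 1.23 ± 0.17 (log2, adjusted p = 0.000693, edgeR), and Ift172, a subunit of the intraflagellar transport complex, by 1.14 ± 0.10 (adjusted p = 8.28e-05, edgeR). Rab23, a GTPase that opposes the path, fell by 0.81 ± 0.10 (adjusted p = 0.000412, edgeR). Of 14 other genes reported as targets 10 were tested, and 1 rose and 1 fell, or 1 and 3 without 24 h cells. The shares of all genes are those given for the cilium list. Jag2, a Notch ligand, rose by 2.22 ± 0.48 (adjusted p = 0.00661, edgeR) at a low level of 0.0289 and 0.0481 RPKM against 0.121 and 0.196 RPKM. Bcl2, which protects from apoptosis, fell by 0.43 ± 0.13 (adjusted p = 0.0251, edgeR), from 2.71 and 2.46 RPKM to 1.78 and 1.77 RPKM. Foxf1, at 17.2 to 21.6 RPKM in all libraries, did not pass the test in any of the 6 comparisons.

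**Figure D4:**
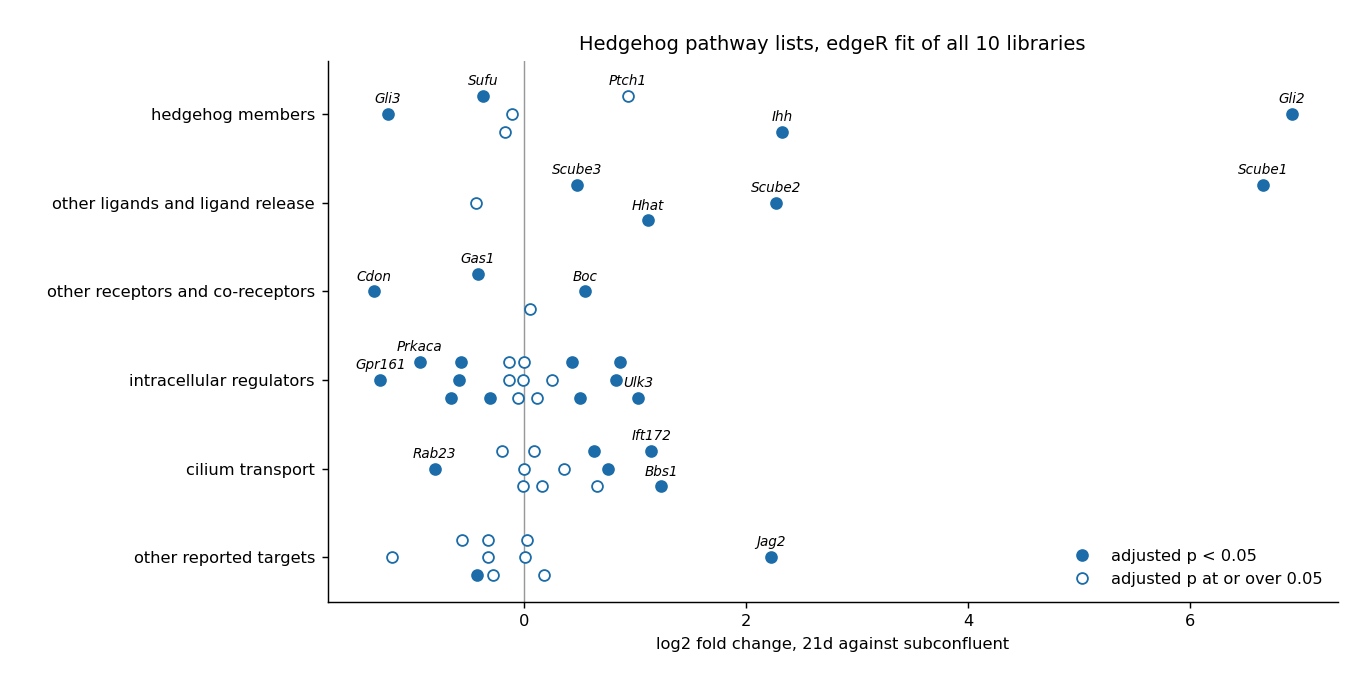
log2 fold change at 21 d against subconfluent cells (horizontal axis) of each tested member and pathway gene, by list, filled where the adjusted p was under 0.05. Genes lie on both sides of 0 in all lists, the ligand list has 4 rises and 0 falls (4 and 1 without the 24 h libraries), and the fitted values of Gli2 and Scube1 rest on 0 and 1 counts in subconfluent cells and give no size.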

How the data were processed

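RNA of MC3T3-E1 cells was sequenced by the authors as paired reads at 5 stages with 2 libraries each. The labels name mm10 as the build and TopHat2 2.0.9 and R 3.0.1 among the tools; the counter and its use of strand are not given in the sources used here. The deposited counts are whole numbers per Ensembl gene, and the deposited RPKM values were made by the authors from counts, gene length and a read number below the count total. Library 14 d A and library 21 d B were sequenced in 2 lanes, and their merged columns were used. Symbols and positions came from GENCODE vM21 (39547 of 40620 identifiers) and promoters from RefSeq.

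Counts were fitted with edgeR 4.0.16 in R 4.3.3 (filterByExpr, TMM, quasi-likelihood, 5 groups, 10 libraries). An F test over the stages and 6 contrasts were adjusted by Benjamini-Hochberg over all 20808 genes, and adjusted p under 0.05 was called. SE was taken as the size of the log2 fold change over the root of the F statistic. DESeq2 1.42.0 and limma 3.58.1 on log2 RPKM were alternatives. The code was tested on simulated data. In the lists, 1 gene is not reported here. Members and lists were chosen with earlier results of these data known. Named are all members, the 3 called genes of each list with the largest change at 21 d against subconfluent, and the 3 genes nearest in pattern to each member. Other genes were named after their values were seen, namely markers, Shh, Dhh, Disp1, Foxf1 and the genes behind counts of 2 and 3.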

Additional observations from a re-analysis of the deposited data

How the results depend on the processing

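Each result was recomputed under 11 other settings and with each of the 10 libraries left out. No call changed direction. The fall of Gli3 at 21 d against subconfluent passed in all of them. The number of members that differed over the stages was 2, and 1 with at least 10 counts in every sample (which leaves 5 members to test), 1 with limma on log2(RPKM + 1), 1 with limma on log2(RPKM + 0.1), 5 without the 24 h samples, and 1 to 6 with 1 library left out. For 14 d against confluent it was 2, and 1 with library size alone, 1 with DESeq2, 1 with no filter, 1 with at least 10 counts, 1 with limma on log2(RPKM + 1), and 0 to 3 with 1 library left out. For 21 d against subconfluent it was 4, and 1 with at least 10 counts, 2 with limma on log2(RPKM + 1), and 1 to 5 with 1 library left out. It was 0 for 21 d against 14 d, and 4 with only those stages fitted, 3 without the 24 h samples, and 0 to 3 with 1 library left out. It was 0 for 14 d against 24 h, and 1 with DESeq2 and 0 to 4 with 1 library left out, and 0 for 24 h against confluent, with 0 to 4. The other genes of the path called numbered 25 for 21 d against subconfluent (16 to 32 over all alternatives), 16 for 14 d against confluent (7 to 31), 10 for 14 d against 24 h (0 to 26), 3 for 21 d against 14 d (0 to 18), 2 for 24 h against confluent (0 to 23) and 3 for confluent against subconfluent (0 to 10, and 0 with library size alone or the replicate block). Calls over all genes moved with the setting as well. With only the 2 stages fitted, 5870 genes were called for 21 d against 14 d, where the main fit called 784 higher and 1239 lower. For 14 d against 24 h it was 319 genes, where the main fit called 1889 higher and 1708 lower. No count of members here is read as particular to Hedgehog genes. The causes of these changes were not tested, beyond the smaller number of members or libraries that a setting leaves.

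Whether the letters A and B pair the libraries was not settled. The correlation of the A minus B differences was over 0.1 in 0 of 10 pairs of stages (-0.18 to 0.10). It was taken over all tested genes, also those with few counts, so a low value cannot show that the letters do not pair. With the letter as a replicate block, 1 member differed over the stages and 0 in 14 d against confluent, and 14 d against confluent lost Gli2 (adjusted p = 0.0829) and Gli3 (adjusted p = 0.0799), and 21 d against subconfluent lost Ihh (adjusted p = 0.051). With library size as the only scaling, the median of all genes moved by up to 0.23 on the log2 scale. Ihh, Gli2, Hhip and Scube1 are limited by depth, with at most 43 counts a stage for the first 3. The 24 h stage limits every shared estimate of the spread.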
